A study of Mus musculus with 12 samples.

Results

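The comparison covered every mature miRNA counted in the small RNA columns of APP/PS1 and wild-type (WT) mouse hippocampus, described as single miRNAs and by seed family, genomic cluster and 5p or 3p arm. The members were taken as all columns of the small RNA table, 3 headed APP and 3 headed WT, which are 6 of the 12 samples of the series. The table listed 1978 mature miRNAs. Of these, 1420 had a count in at least 1 column and 703 passed the expression filter of the fit.

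APP/PS1 mice carry 2 transgenes, APPswe, an amyloid precursor protein with the Swedish mutation, and PSEN1dE9, a deletion variant of presenilin 1, and are used as a model of amyloid deposition. The animals were male and 4 months old, the WT mice were their littermates, and the labels name no treatment and no promoter. The column headings equal the titles of total RNA libraries of the same series, so only the genotype of each column is taken from them, and columns go by their headings, APP1, APP2 and APP3 or WT1, WT2 and WT4.

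A miRNA is a short RNA that guides an Argonaute protein to messenger RNAs, mostly through base pairing of its seed, and so lowers the stability or translation of the target. Members of one seed family can bind the same target sites, members of one genomic cluster can be cut from one primary transcript, and each hairpin precursor yields a 5p and a 3p strand of which one is usually kept. In the brain, miR-9 and miR-124 are known for neuronal identity, miR-132 and miR-212 for induction by neuronal activity, and let-7 for its rise during differentiation.

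The sequences below are those of the miRNAs that the results turn on, with the seed, bases 2 to 8 from the 5′ end, in capitals. They come from RefSeq on GRCm38.p6, where 1679 of the 1978 listed miRNAs and 587 of the 703 tested ones had an entry. The first pair belongs to the family with the largest difference in its sum, and miR-99a-5p, of the same miRNA gene family, is shown because it carries another seed.
miR-10a-5p: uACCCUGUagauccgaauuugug
miR-10b-5p: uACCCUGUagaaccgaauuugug
miR-99a-5p: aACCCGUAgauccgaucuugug
The next set was high in 1 APP/PS1 column, APP3, and holds members of 3 clusters.
miR-206-3p: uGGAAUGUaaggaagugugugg
miR-133b-3p: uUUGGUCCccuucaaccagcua
miR-182-5p: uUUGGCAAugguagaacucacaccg
miR-96-5p: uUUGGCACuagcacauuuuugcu
miR-183-5p: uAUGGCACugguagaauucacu
miR-195a-5p: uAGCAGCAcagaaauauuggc
miR-497a-5p: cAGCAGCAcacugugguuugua
Members from the introns of Htr2c follow, none of which shares a seed with another.
miR-1912-3p: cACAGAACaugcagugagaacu
miR-1264-3p: cAAAUCUUauuugagcaccugu
miR-1298-5p: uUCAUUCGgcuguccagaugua
miR-448-3p: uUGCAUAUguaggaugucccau
The miR-200 group is shown because its seeds differ by 1 base at position 4 between miR-200b-3p and miR-200a-3p.
miR-200b-3p: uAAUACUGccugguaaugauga
miR-429-3p: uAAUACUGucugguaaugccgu
miR-200c-3p: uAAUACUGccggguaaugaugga
miR-200a-3p: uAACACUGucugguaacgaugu
miR-141-3p: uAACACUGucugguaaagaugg
The remaining sequences are pairs with one seed each and 2 single miRNAs that are described with their host genes or as the smallest p.
miR-132-3p: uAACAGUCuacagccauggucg
miR-212-3p: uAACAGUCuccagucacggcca
miR-204-5p: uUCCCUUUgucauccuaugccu
miR-211-5p: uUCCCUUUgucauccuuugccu
miR-146a-5p: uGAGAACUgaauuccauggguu
miR-146b-5p: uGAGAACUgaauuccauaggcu
miR-7a-5p: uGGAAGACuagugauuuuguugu
miR-7b-5p: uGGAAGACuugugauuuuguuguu
miR-128-3p: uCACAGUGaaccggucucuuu
miR-29b-1-5p: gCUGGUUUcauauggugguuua

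The columns held 15593728 to 21631169 counts, and the filter kept 99.99% of them. Column APP3 stood apart: its median correlation of log2 values with the other columns was 0.982, against 0.993 to 0.994 for the others, and its TMM scaling factor was 0.85, against 0.99 to 1.08. It lay over 2-fold above the mean of the other 5 columns for 51 tested miRNAs, where the other columns did so for 2 to 6, and over 2-fold below for 29, where the others did so for 17 to 30. Differences are therefore given with all 6 columns and, for lists, families, clusters and many single miRNAs, also without column APP3. A difference with 1 value is from all 6 columns. The biological coefficient of variation, the spread between columns of one genotype, was 26.2% with all 6 columns and 17.9% without APP3. Values are in CPM, the usual unit of counts scaled to TMM-adjusted column totals, and differences are log2 of APP/PS1 over WT ± SE from edgeR.

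No single miRNA passed the test in either fit. With all 6 columns, 0 of 703 miRNAs (0%) had an adjusted p under 0.05 in edgeR's quasi-likelihood test with Benjamini-Hochberg adjustment, the smallest being 0.960. DESeq2 and limma-voom also called 0. Without APP3, 0 of 713 (0%) were called, with a smallest adjusted p of 0.999. An unadjusted p under 0.05 was reached by 22 miRNAs (3.13%) with all columns, 10 higher and 12 lower, and by 21 (2.95%) without APP3. The groups did not overlap for 50 miRNAs (7.11%), 19 higher and 31 lower in APP/PS1, and for 118 (16.5%) when 2 APP/PS1 columns were set against 3 WT columns. Over all tested miRNAs the median difference was -0.03, and the middle 90% lay between -0.42 and 0.60. The plot of difference against level shows this spread. The values below therefore describe these columns, and a named difference is one that did not pass.

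**Figure D1:**
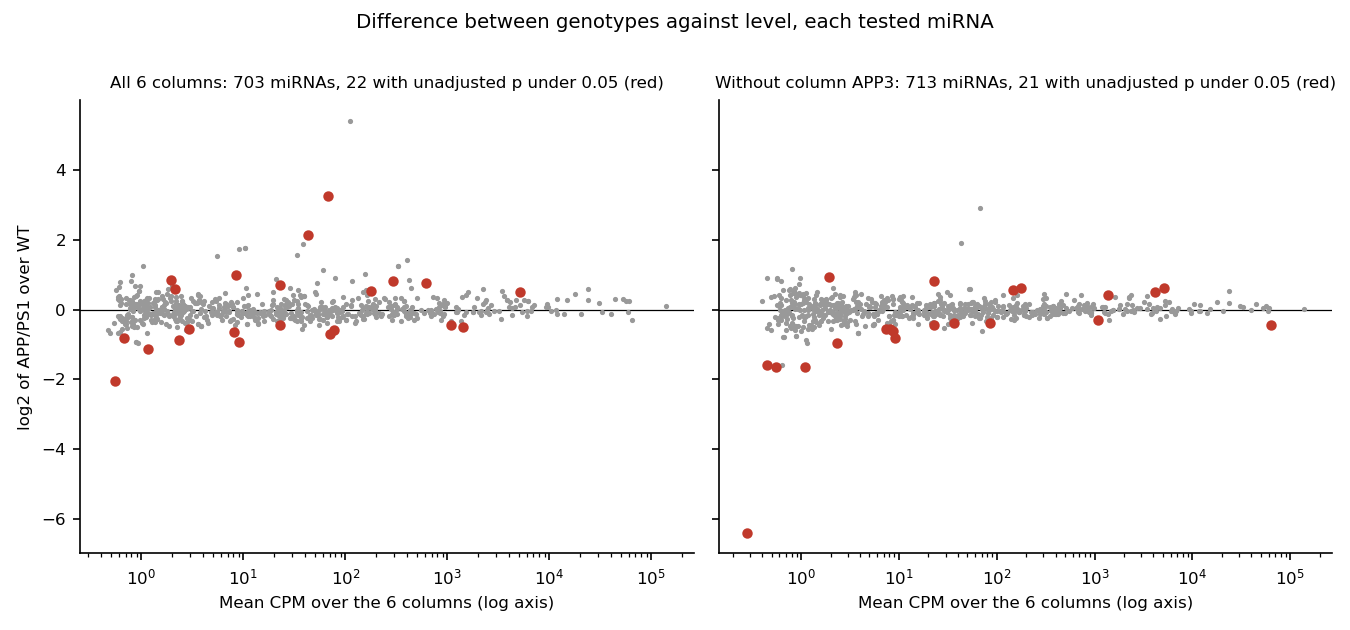
Difference between APP/PS1 and WT (log2, vertical) against the mean level (CPM, log axis) for each tested miRNA, with all 6 columns (703 miRNAs, left) and without column APP3 (713, right). Red points have an unadjusted p under 0.05 (22 and 21), and no point passed the adjusted threshold. The lowest point on the right is miR-7688-5p, which had no count in any APP/PS1 column, so its fitted value is no measure of size.

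Summed by seed, by cluster or taken as arm ratios, the result was the same count of 0. Seed families gave 0 of 503 (0%) with all columns and 0 of 506 (0%) without APP3, with 20 and 10 at an unadjusted p under 0.05. Clusters, hairpins on one strand within 10 kb of each other, gave 0 of 278 (0%) and 0 of 285 (0%), with 8 and 9. Arm ratios, tested with limma, gave 0 of 177 (0%) and 0 of 178 (0%), with 7 and 4. Families with 2 or more tested members numbered 53, of which 26 had a positive and 27 a negative difference. Clusters with 2 or more hairpins and 2 or more tested members numbered 41, of which 20 were positive and 21 negative.

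A few miRNAs made up most of the small RNA. The 12 most abundant miRNAs held 62.5% of the counts. Led by miR-9-5p with 13.8%, they included miR-128-3p, miR-99a-5p, miR-26a-5p, miR-127-3p, miR-218-5p, miR-30d-5p, miR-7a-5p and 4 let-7 members. The level of miR-9-5p was 148015, 120146 and 161565 CPM in columns APP1, APP2 and APP3 and 128993, 128504 and 144367 CPM in WT1, WT2 and WT4. These values overlapped, and the difference of 0.10 ± 0.18 turned negative, to -0.0068, when columns were scaled by total count. Differences of the other 11 lay between -0.29 for miR-128-3p and 0.60 for miR-30d-5p.

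The let-7 seed, GAGGUAG, was the largest family by counts. Its 11 tested members held 22.0% of the counts and summed to 222010.0, 204222 and 296892 CPM in APP/PS1 and 193771, 197611 and 219581 CPM in WT. The difference of the sum was 0.24 ± 0.18 with all columns and 0.09 ± 0.11 without APP3, which was the highest column. Differences were positive for 10 of the 11 members, and the exception was let-7k, at -0.30 ± 0.20. Of the members, let-7g-5p was the most abundant, at 59984, 51914 and 85929 CPM against 53786, 51925 and 61535 CPM. The miR-30 list had 6 of 6 positive differences with all columns and 5 of 6 without APP3, with medians of 0.28 and 0.18, beside -0.03 and close to 0 (-3.4e-05) over all miRNAs. With 1 column left out the first median lay between 0.18 and 0.44. Its most abundant member, miR-30d-5p, stood at 23022, 19398 and 43385 CPM and 17982, 17754 and 21029.9 CPM, so that the APP3 value was 2.19-fold the mean of the other columns.

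The miR-10 family, seed ACCCUGU, had the largest difference in its sum of the named families, and it came from 2 of the 3 APP/PS1 columns. miR-10a-5p and miR-10b-5p lie within the Hoxb and Hoxd gene clusters and differ at 1 of 23 bases, position 12 from the 5′ end, so reads of one could be counted for the other. Levels of miR-10b-5p were 9.78, 178 and 182 CPM in APP1, APP2 and APP3 and 7.09, 13.4 and 17.9 CPM in WT1, WT2 and WT4. Levels of miR-10a-5p were 9.85, 107 and 93.1 CPM and 18.2, 15.5 and 14.3 CPM in the same order. Columns APP2 and APP3 were thus 13.9- and 14.2-fold the WT mean for miR-10b-5p, while APP1 lay within the WT range for miR-10b-5p and below it for miR-10a-5p. The difference of the family sum was 2.74 ± 1.01 with all columns and 2.44 ± 1.23 without APP3, and neither passed. Without column APP1 both miRNAs passed, with adjusted p of 0.000437 for miR-10b-5p and 0.000393 for miR-10a-5p, so the call turned on 1 column. By contrast miR-99a-5p, whose seed differs, was at 56738, 59551 and 58018 CPM and 61659, 64444 and 56590.3 CPM.

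In CPM the same 2 columns were the highest for all 7 members of a list of miRNAs typical of hindbrain and spinal cord, miR-10a, miR-10b, miR-196a, miR-196b and miR-615, all encoded in Hox clusters. Besides the pair above, the 5 others were too low to be tested. Counts of miR-615-3p were 0, 26 and 119 in APP1, APP2 and APP3 and 2, 3 and 1 in WT1, WT2 and WT4. Counts of miR-196a-5p were 1, 18 and 2 against 0, 2 and 0. Here APP3 and WT2 had the same count and only their column totals set them apart. The list summed to 19.9, 289 and 285 CPM in APP1, APP2 and APP3 and 25.6 to 32.5 CPM in WT. The part of other brain regions in this result was not tested, and in whole tissue more cells of a type and more RNA per cell cannot be told apart. Neuronal miRNAs were present in every column, but their list does not tell brain regions apart. The 20 neuronal miRNAs summed to 264800.0, 237430.0 and 298316 CPM in APP/PS1 and 251977 to 283155 CPM in WT. Among them, miR-124-3p was at 3449, 3931 and 6919.6 CPM and 4229.6, 4542 and 4725 CPM.

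**Figure D2:**
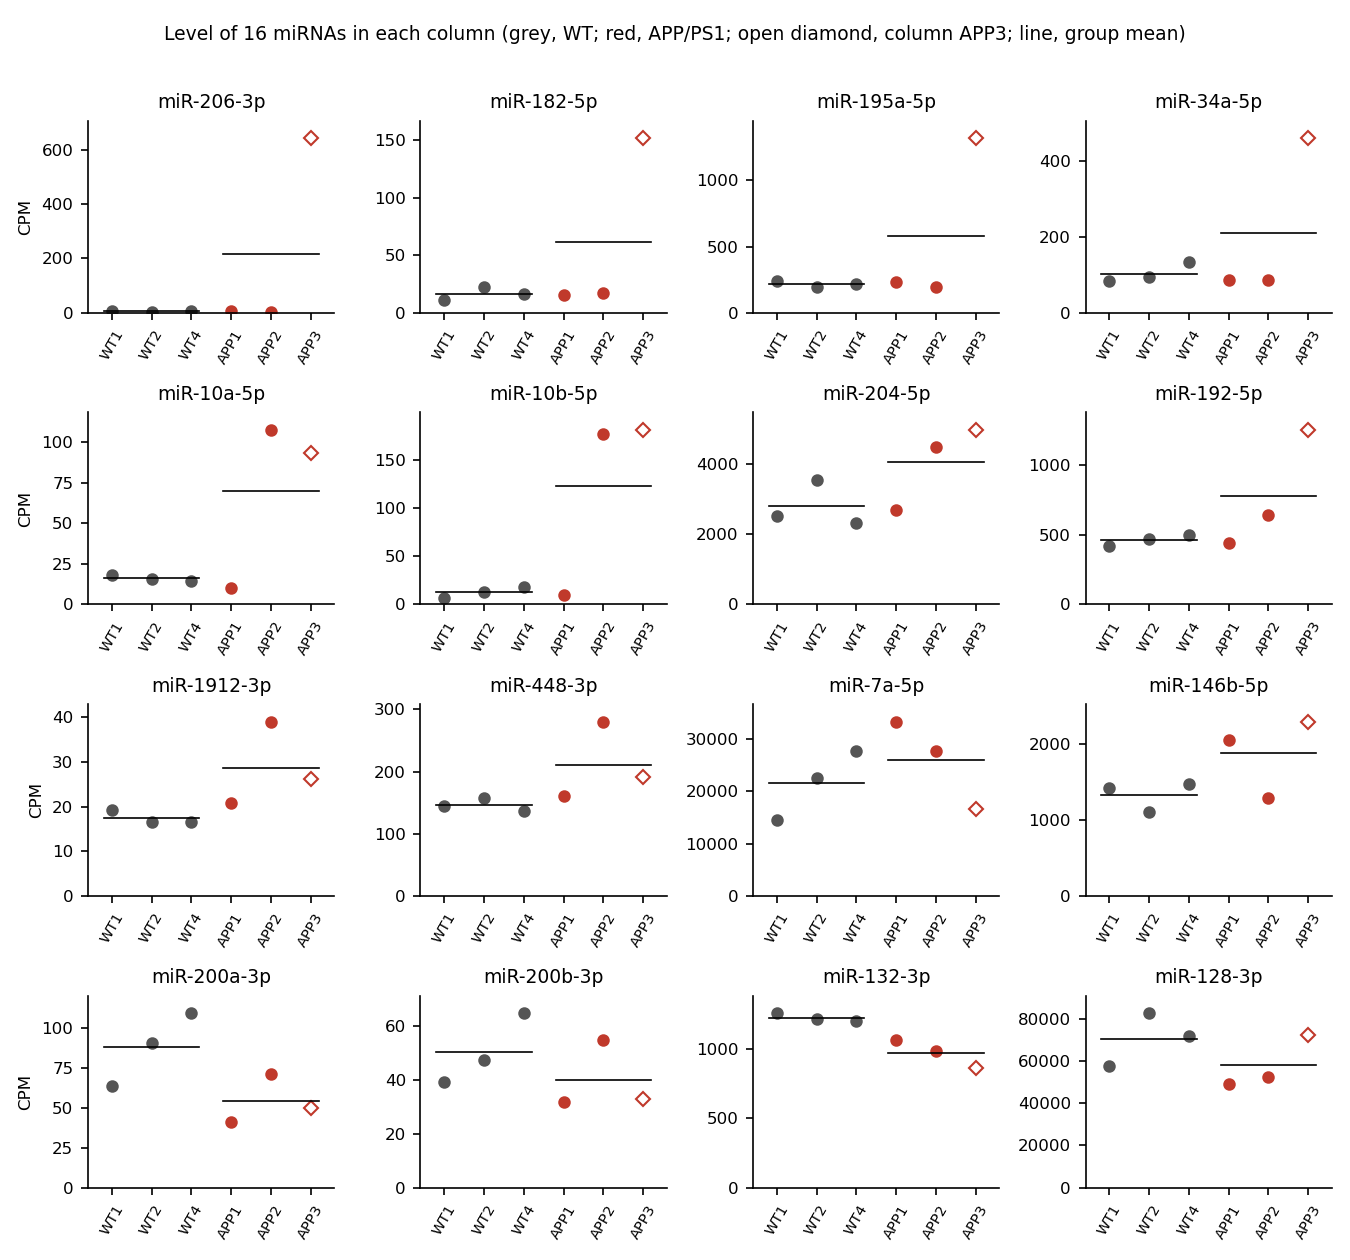
Level in CPM (vertical, from 0) of 16 miRNAs in each column (horizontal), WT in grey, APP/PS1 in red, column APP3 as an open diamond and the group mean as a line. In the top row only APP3 is high, miR-10a-5p and miR-10b-5p are high in APP2 and APP3, and the 3 WT values of miR-132-3p lie above the 3 APP/PS1 values.

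Some miRNAs were high in column APP3 and at the WT level in APP1 and APP2. The largest was miR-206-3p, a miRNA known from skeletal muscle, at 6.54, 3.09 and 643 CPM in APP1, APP2 and APP3 and 5.66, 3.72 and 6.0 CPM in WT. It shares a cluster on chromosome 1 (20679010 to 20682887, GRCm38.p6, plus strand) with miR-133b-3p, which was at 2.2, 2.86 and 19.3 CPM and 2.38, 2.54 and 3.54 CPM. The sum of this cluster differed by 4.83 ± 2.16 with all columns and by -0.09 ± 0.24 without APP3, a change of sign. The list of muscle and liver miRNAs had 7 of 8 positive differences with all columns and 2 of 8 without APP3. It summed to 1312, 1503 and 3616 CPM in APP1, APP2 and APP3 and 1259 to 1448 CPM in WT, so APP3 lay above the other columns. APP3 was the highest column for miR-194-5p, found in liver and gut, at 303, 280.0 and 1039 CPM and 326, 284 and 287 CPM. It was also the highest for miR-192-5p, made from the same cluster as one of the miR-194 hairpins, at 442, 642 and 1253 CPM and 416, 468 and 498 CPM, and for miR-133a-3p, a muscle miRNA, at 13.0, 16.1 and 34.1 CPM and 15.4, 17.5 and 19.7 CPM. For miR-1a-3p, the most abundant miRNA of muscle, APP3 lay within the WT range, at 517, 533 and 586 CPM and 603, 453 and 599 CPM. For miR-122-5p, that of liver, APP3 was the highest at a low level, at 7.84, 6.63 and 10.3 CPM and 6.96, 7.34 and 6.78 CPM. The part of muscle or liver RNA in the APP3 values was not tested.

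The miR-183 cluster on chromosome 6 (30165918 to 30169737, minus strand), known from sensory organs, showed the same form in its 3 members. miR-182-5p was at 15.3, 16.7 and 152 CPM in APP/PS1 and 10.8, 22.6 and 16.4 CPM in WT, and miR-183-5p at 10.4, 17.5 and 122 CPM and 15.9, 19.7 and 15.4 CPM. miR-96-5p was at 2.27, 3.83 and 36.1 CPM and 3.93, 5.02 and 3.6 CPM. The 3 members were 9.26-, 7.74- and 9.67-fold the mean of the other columns in APP3, although they carry 3 different seeds. Their sum differed by 1.73 ± 0.95 with all columns and -0.16 ± 0.23 without APP3, again with the sign turned.

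miR-195a-5p and miR-497a-5p share a cluster on chromosome 11 and the seed AGCAGCA, which is also that of miR-16-5p and miR-15a-5p. miR-195a-5p, reported to act on Bace1 messenger RNA, was at 230.2, 194 and 1319 CPM and 238, 193 and 216 CPM. miR-497a-5p was at 49.7, 45.8 and 216 CPM and 60.7, 52.4 and 54.4 CPM. Summed over its 6 tested members the family differed by 0.67 ± 0.46 with all columns and -0.05 ± 0.16 without APP3, so the positive value rested on that column. miR-34a-5p, a p53 target, was at 85.6, 85.9 and 460.1 CPM and 82.6, 94.2 and 133 CPM, and miR-486a-5p, abundant in red blood cells and counted identically to miR-486b-5p, at 161, 163 and 1065 CPM and 208, 181 and 198 CPM. The list of red cell miRNAs, which holds miR-486, summed to 1475, 1519 and 3252 CPM in APP1, APP2 and APP3 and 1396 to 1743 CPM in WT. Some other members were highest in APP3 too, with miR-16-5p at 725, 619 and 1345 CPM and 824, 592 and 702 CPM and miR-486a-3p at 5.05, 4.17 and 38.5 CPM and 4.28, 5.13 and 4.68 CPM. The members miR-92a-3p and miR-363-3p were not. miR-92a-3p was at 348, 404 and 349 CPM and 399, 365 and 373 CPM, and miR-363-3p at 1.04, 2.69 and 2.69 CPM and 1.12, 3.45 and 1.8 CPM. For miR-451a, the most typical red cell miRNA, APP3 was the highest with WT4 next, at 205, 279 and 385 CPM and 259.8, 197 and 345 CPM. The part of red cells in the APP3 values was not tested. The 51 miRNAs over 2-fold above in APP3 had a median GC content of 47.8% (34 with a sequence), the same as all tested miRNAs. Of the 51, 23 were 5p and 23 were 3p arms, beside 314 and 345 of all 703. The 29 over 2-fold below had a median GC content of 50% (23 with a sequence) and a median level of 1.16 CPM, with 10 5p and 16 3p arms.

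miRNAs from the introns of Htr2c, the serotonin 2C receptor gene on the X chromosome, had higher values in APP/PS1, most of all in APP2. Of 8 listed members, 7 had a positive difference with all columns and 8 without APP3, with medians of 0.47 and 0.58. Without APP2 the median was 0.15, and 0.14 without APP2 and APP3. None passed the test (0%). miR-1912-3p was at 20.9, 39.0 and 26.1 CPM in APP1, APP2 and APP3 and 19.3, 16.5 and 16.7 CPM in WT, with groups that did not overlap and a difference of 0.71 ± 0.25 (0.81 ± 0.26 without APP3). miR-448-3p was at 161, 280.2 and 191 CPM and 145, 158 and 136 CPM, and its groups did not overlap either. The most abundant member, miR-1298-5p, was at 4704, 8002 and 5283 CPM and 4244, 4713 and 3726 CPM, where APP1 lay just below the highest WT column. The difference of miR-1264-3p was 0.49 ± 0.23 with all columns and 0.57 ± 0.23 without APP3. The negative member was miR-764-3p, at -0.15 ± 0.36. Its levels were low, at 1.49, 1.43 and 0.97 CPM in APP/PS1 and 2.07, 1.24 and 0.96 CPM in WT. Without WT1, its highest column, all 8 differences were positive, with a median of 0.42. With APP2 as the only APP/PS1 column, a choice made after seeing the data, all 8 differences were positive, with a median of 0.94. No second APP/PS1 column gave the spread of these values. In the cluster fit the locus was split, and miR-1912-3p, miR-3552 and both arms of miR-764 formed one cluster (X, 146999405 to 147009527, plus strand). Its sum differed by 0.50 ± 0.23. That sum did not hold miR-1264-3p, although it starts at 147010655 on the same strand, within 10 kb of the cluster's end. The 10 kb rule thus does not account for this split, whose source was not examined.

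Htr2c is expressed in choroid plexus as well as in neurons, and miRNAs of choroid plexus and ciliated epithelium also varied between columns. The list of 16, of which 13 were tested, summed to 5652, 9149 and 8202 CPM in APP1, APP2 and APP3 and 5151 to 6395 CPM in WT, so APP2 and APP3 lay above the other 4 columns. It had 8 positive and 5 negative differences in both fits, with medians of 0.21 and 0.17. Both medians depended on single columns. The first was 0.01 without APP2, 0.02 without WT4 and 0.42 without APP1. The second was -0.26 when APP2 was left out as well and 0.50 when APP1 was, each with 1 APP/PS1 column left. Its main member by counts, miR-204-5p, shares the seed UCCCUUU with miR-211-5p, from which it differs at 1 of 22 bases. miR-204-5p was at 2696, 4464 and 4962 CPM and 2512, 3525 and 2328 CPM, and miR-211-5p at 124, 213 and 234 CPM and 109, 172 and 107 CPM. Both were highest in APP2 and APP3 with WT2 next, and the family sum differed by 0.54 ± 0.25 (0.39 ± 0.26 without APP3). miR-34b-5p, a miRNA of ciliated cells, was at 432, 759.6 and 518 CPM and 499.9, 378 and 469 CPM. The part of choroid plexus in the Htr2c and miR-204 values was not tested.

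The miR-200 group, another set in that list and known from epithelia, had lower values in APP/PS1. The cluster of miR-200b, miR-200a and miR-429 (chromosome 4, 156053905 to 156055750, minus strand) summed to 79.1, 137 and 90.4 CPM in APP/PS1 and 114, 154 and 193 CPM in WT. All 4 tested members were negative in both fits, and the sum differed by -0.59 ± 0.27 and, without APP3, by -0.47 ± 0.29. The groups overlapped, since APP2 lay above WT1. miR-429-3p was at 4.79, 8.46 and 5.59 CPM and 7.91, 12.5 and 15.4 CPM. miR-200a-3p, with the other seed of the group, was at 41.3, 71.3 and 49.8 CPM and 64.0, 90.5 and 109 CPM. Of the second miR-200 locus, on chromosome 6, miR-200c-3p was at only 1.3, 2.34 and 2.97 CPM and 1.64, 1.51 and 1.86 CPM, a positive difference of 0.40 ± 0.32. The seed AAUACUG, which joins miR-200b-3p, miR-429-3p and miR-200c-3p over both loci, summed to a difference of -0.40 ± 0.26 (-0.27 ± 0.29 without APP3).

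**Figure D3:**
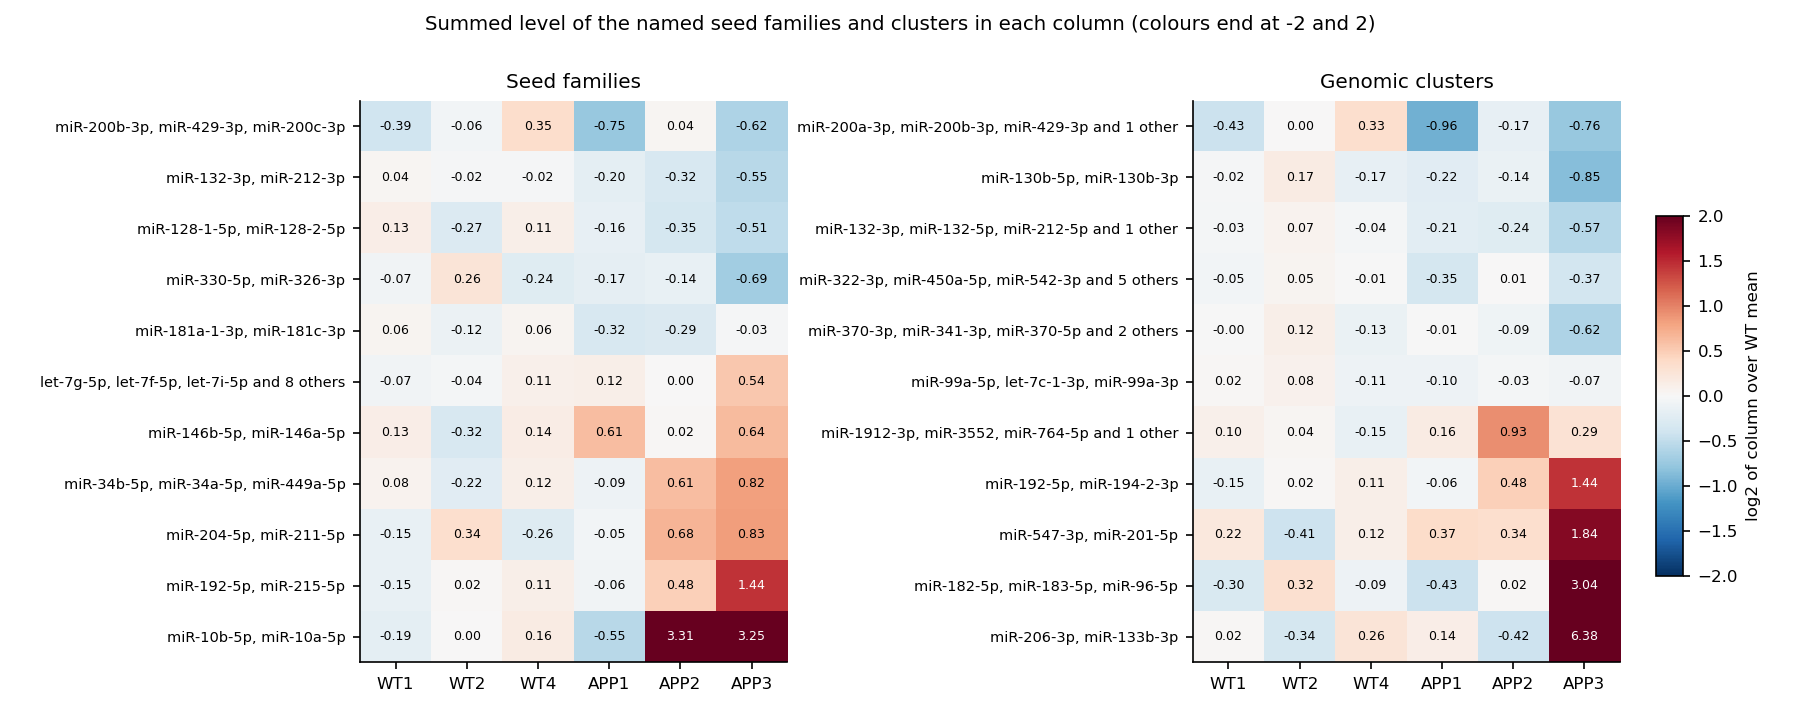
Summed level of the 11 named seed families (left) and 11 named genomic clusters (right) in each column, as log2 of the column over the mean of the 3 WT columns; colours end at -2 and 2 and the numbers give the values. The clusters of miR-206 and miR-182 depart in APP3, the miR-10 family in APP2 and APP3, and the miR-132 and miR-212 family lies below 0 in each APP/PS1 column.

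The miR-132 and miR-212 cluster (chromosome 11, 75173388 to 75173747, plus strand), induced by neuronal activity through CREB, was lower in all 3 APP/PS1 columns. Its 4 arms summed to 2745, 2681 and 2139 CPM in APP1, APP2 and APP3 and 3098, 3324 and 3085 CPM in WT1, WT2 and WT4. The groups did not overlap, and the difference of -0.33 ± 0.15 (-0.20 ± 0.11 without APP3) did not pass the test. miR-132-3p was at 1067, 985 and 862 CPM and 1259, 1215 and 1199.9 CPM, miR-132-5p at 974, 1004 and 769.6 CPM and 1189, 1355 and 1161 CPM. miR-212-3p, which has the seed AACAGUC in common with miR-132-3p, was at 78.0, 68.8 and 38.7 CPM and 101, 84.1 and 96.0 CPM. APP3 was the lowest column for each of these 3 arms. The fourth arm, miR-212-5p, overlapped between groups, with a difference of -0.11 ± 0.17 that was 0.05 ± 0.13 without APP3. In the list of 14 activity-related miRNAs, 8 differences were negative with all columns and 12 without APP3, with medians of -0.11 and -0.14. With 1 column left out the first median lay between -0.16 and -0.03, the latter without WT1. Its positive members with all columns included the 3 of the miR-183 cluster.

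miR-7a-5p, abundant in neuroendocrine cells, and miR-7b-5p share the seed GGAAGAC. miR-7a-5p was at 33312, 27785 and 16585 CPM and 14444, 22592 and 27704 CPM, and miR-7b-5p at 5558, 4972 and 2795 CPM and 2746, 3861 and 4755 CPM. Both were highest in APP1 and APP2 and both were low in APP3 and WT1. The difference of the family was 0.26 ± 0.30 with all columns and 0.53 ± 0.24 without APP3, and only in the second did the groups not overlap. The smallest p of the higher miRNAs belonged to miR-29b-1-5p, the minor arm of miR-29b-1, at 2.72, 2.46 and 2.28 CPM and 1.3, 1.19 and 1.68 CPM, a difference of 0.84 ± 0.25 (0.93 ± 0.28 without APP3). It was present at few counts, and its major partner miR-29b-3p, reported to act on Bace1, was at 805, 730.1 and 617 CPM and 793, 732 and 810.2 CPM.

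For miRNAs reported to act on Bace1 or App messenger RNA, 10 of 24 differences were positive and 14 negative in both fits, with medians of -0.03 and -0.02. With 1 column left out the first median lay between -0.03 and 0.02, so its sign was not stable. None was called. miR-107-3p was at 837, 804 and 716 CPM and 885, 677 and 746 CPM, and miR-29c-3p at 179.7, 191 and 184 CPM and 223, 210.2 and 211 CPM. A list of 15 miRNAs linked to inflammation and amyloid gave 7 positive and 8 negative in both fits, with medians of -0.03 in each. miR-146a-5p and miR-146b-5p, which restrain Toll-like receptor signalling and share the seed GAGAACU, were at 959, 704 and 755 CPM and 731, 472 and 690.3 CPM, and at 2049, 1290.0 and 2296 CPM and 1419, 1100.4 and 1480.2 CPM. WT2 was the lowest column for both, the groups overlapped, and the sum differed by 0.45 ± 0.21 (0.37 ± 0.20 without APP3). miR-155-5p, induced in activated leukocytes, was at 5.12, 6.06 and 4.63 CPM and 4.28, 4.48 and 4.74 CPM.

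Lists of cell type miRNAs had medians near 0. Neuronal members gave 8 positive of 20 with all columns (median -0.09) and 10 without APP3 (0.0036). Astrocyte members gave 3 of 9 in both fits (-0.12 and -0.03), and oligodendrocyte members 2 and 4 of 10 (-0.12 and -0.07, with a positive sign without WT1). Microglia and leukocyte members gave 6 of 12 in both fits (0.01 and -0.01), with a sign that turned under some scalings. Endothelial and mural members, with the miR-10 pair among them, gave 9 and 8 of 14 (0.07 and 0.02). Their first median also turned under total count and upper quartile scaling and lay between -0.04 and 0.29 with 1 column left out, the lowest without APP2 and the highest without APP1. Red cell members gave 6 of 8 with all columns and 2 of 8 without APP3 (0.14 and -0.10). The miR-17-92 group and its paralogues gave 6 and 7 of 13 (-0.02 and 0.02), with a sign that turned under some scalings. Pituitary and endocrine members gave 3 and 4 of 5 (0.08 and 0.14), and the first median was -0.16 without APP2. No list member was called in either fit, beside 0% of all tested miRNAs. The plot of the 19 lists shows the members around their medians.

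**Figure D4:**
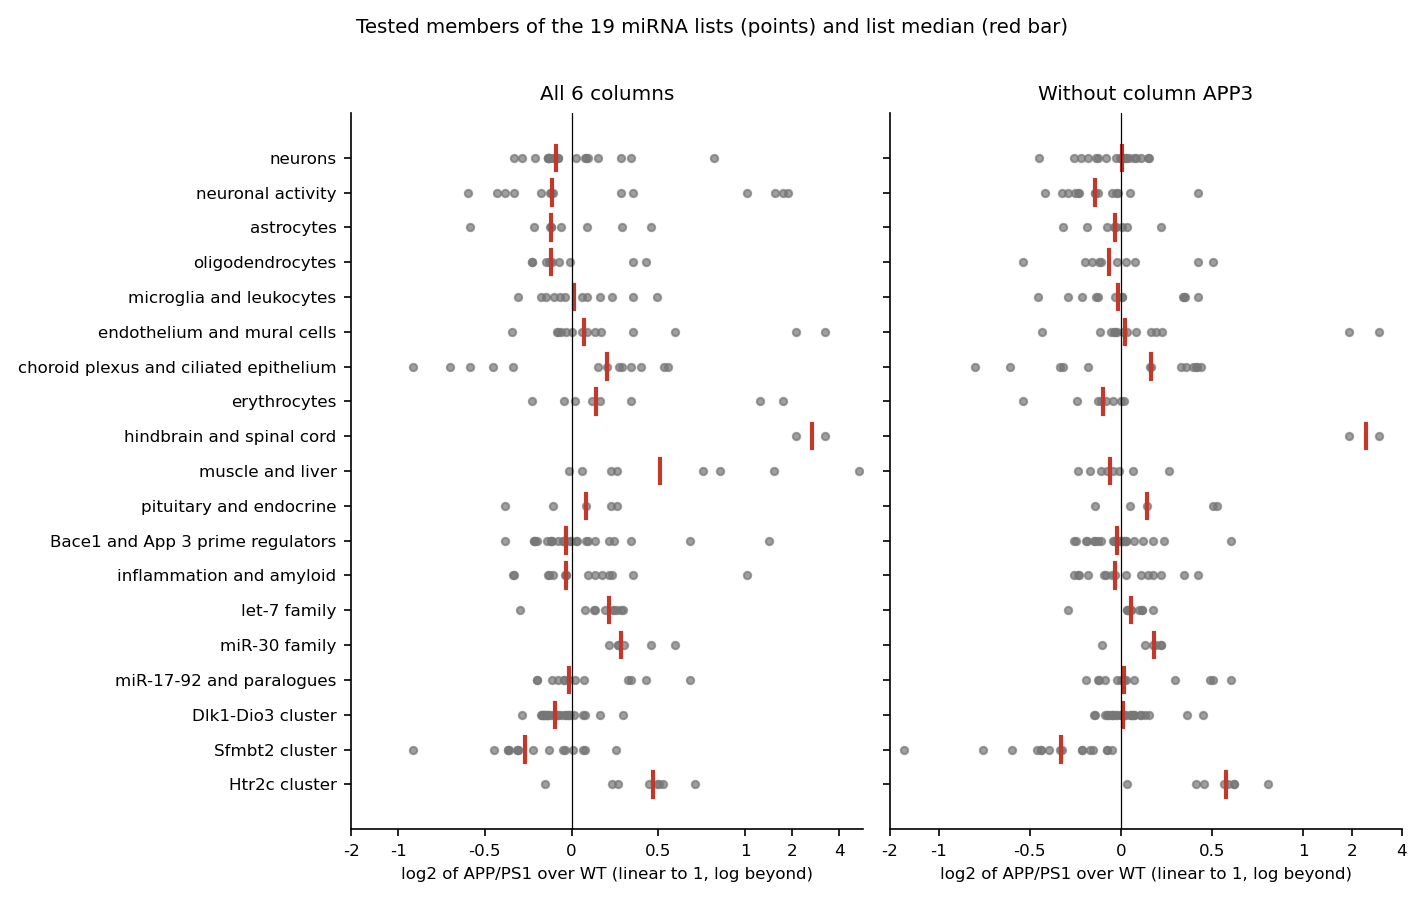
Difference between APP/PS1 and WT (log2, horizontal, linear to 1 and log beyond) of each tested member (grey points) of 19 miRNA lists, with the list median as a red bar, for all 6 columns (left) and without column APP3 (right). The Htr2c list lies to the right in both panels, the Sfmbt2 list to the left, and the muscle and liver list moves from 0.51 to -0.06.

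Large clusters tied to imprinted loci were also summarised. In the list of the Dlk1-Dio3 region on chromosome 12, 25 of 30 differences were negative with all columns and 12 of 30 without APP3, with medians of -0.09 and 0.01, and under the other scalings and filters the second median lay between -0.03 and 0.02. The first was -0.18 without APP1 and -0.04 without WT1. The second was -0.09 when APP1 was left out as well and 0.12 when APP2 was, each with 1 APP/PS1 column left. Its main part by counts, the cluster that holds miR-127-3p, summed to 63085, 49754 and 46974 CPM and 61380.4, 57548 and 55640.0 CPM, a difference of -0.13 ± 0.15 (-0.02 ± 0.13 without APP3). The neighbouring cluster that holds miR-381-3p, with 56 tested members, differed by -0.01 ± 0.14 (0.05 ± 0.13 without APP3). The Sfmbt2 list of miR-466, miR-467 and miR-669 members, which are near copies of each other and may share reads, had 12 of 16 negative differences with all columns and 16 of 16 without APP3. Its medians were -0.27 and -0.33. Its summed level was 248, 265 and 252 CPM in APP1, APP2 and APP3 and 283, 287 and 372 CPM in WT1, WT2 and WT4, the highest column. Without WT4 the median was -0.11 with 9 of 16 negative, and -0.09 with 12 of 16 negative when APP3 was left out as well. Without APP2 the first median was -0.12. Of its named members, miR-669c-5p was at 18.6, 19.3 and 19.96 CPM and 24.7, 23.0 and 31.0 CPM, lower in each APP/PS1 column, and miR-467e-5p at 6.54, 6.17 and 10.3 CPM and 8.9, 8.58 and 12.1 CPM, lower in APP1 and APP2.

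miR-128-3p, a brain miRNA made from 2 hairpins, held 6.4% of the counts. It was at 48922, 52304 and 72199 CPM in APP1, APP2 and APP3 and 57528, 82476 and 71549 CPM in WT1, WT2 and WT4. Columns APP1 and APP2 lay below every WT column while APP3 did not, so the difference was -0.29 ± 0.22 with all columns and -0.45 ± 0.16 without APP3. Of its hairpins' other arms, miR-128-2-5p had the form of the 3p arm, at 6.02, 4.92 and 8.63 CPM and 8.38, 7.93 and 8.04 CPM.

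Host genes of intronic miRNAs were read from the 6 total RNA libraries of the same genotypes, in which 1 of 18060 genes passed (0.00554%). The labels do not link the columns to individual total RNA libraries, so the values stand side by side and were not correlated. Of 36 host genes tested, 0 were called, 17 had positive and 19 negative differences. Arpp21, host of miR-128-2, was at 174, 139 and 187 CPM in APP/PS1 and 234, 266 and 229 CPM in WT, with groups that did not overlap and a difference of -0.54 ± 0.13 (-0.64 ± 0.11 without APP/PS1 library 3). R3hdm1, host of miR-128-1, differed by -0.25 ± 0.15 (-0.10 ± 0.08 without that library). Trpm3, host of miR-204, was at 235, 321 and 337 CPM and 228, 217 and 228 CPM, a difference of 0.41 ± 0.14 (0.31 ± 0.13). Trpm1, host of miR-211 of the same seed family, had values on the other side, at 0.0422, 0.0222 and 0.0439 CPM and 0.173, 0.102 and 0.265 CPM, without overlap and with a difference of -2.30 ± 0.60 (-2.47 ± 0.82). These are very low levels that rest on few counts. Htr2c was at 58.2, 90.5 and 49.1 CPM and 60.01, 61.4 and 52.9 CPM, and differed by 0.18 ± 0.22 (0.35 ± 0.19 without APP/PS1 library 3). Sfmbt2 differed by -0.44 ± 0.20 (-0.31 ± 0.18 without library 3). Of the Dlk1-Dio3 hosts Meg3 differed by -0.16 ± 0.17 (-0.01 ± 0.09), Rian by 0.06 ± 0.16 (0.11 ± 0.18) and Mirg by 0.03 ± 0.18 (0.05 ± 0.20).

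The arm that each hairpin kept was the same in both genotypes for most hairpins. Of 177 pairs with a mean of at least 20 counts for each arm, the 5p arm held over 50% in every column in 80, the 3p arm in 80, and the leading arm differed between columns in 17. In 82 pairs one arm held over 90% in every column. The median difference of the log2 ratio of 5p to 3p was 0.02 with all columns and 0.05 without APP3, against a median SD over the 6 columns of 0.24. The smallest adjusted p in limma, 0.553, belonged to miR-146b. Its 5p arm held 99.8%, 99.8% and 99.9% of the counts in APP1, APP2 and APP3 and 99.7%, 99.6% and 99.7% in WT1, WT2 and WT4, a log2 ratio difference of 0.86 ± 0.21 (0.72 ± 0.21 without APP3) that rests on a mean of 64.5 counts of the 3p arm.

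Other arm shares differed by more in percentage points. Over all 177 pairs the groups did not overlap in 6.78%, 9 higher and 3 lower in APP/PS1. For miR-212 the 5p arm held 88.9%, 90.1% and 92.4% in APP/PS1 and 84.5%, 88.9% and 86.8% in WT, just without overlap, with a difference of 0.54 ± 0.21 (0.37 ± 0.20 without APP3). This follows the values above, in which miR-212-3p was lower and miR-212-5p overlapped. For miR-503 the 5p arm held 35.5%, 32% and 32.5% and 43.0%, 38.8% and 41.8%, also without overlap, with a difference of -0.48 ± 0.22 (-0.45 ± 0.29 without APP3). Its 5p and 3p arms had means of only 53 and 86.8 counts. For miR-3093 the share was 55.6%, 64% and 70.4% and 69.7%, 75.5% and 76.6%, and here APP3 lay within the WT range. miR-185, miR-187 and miR-204 had higher 5p shares and miR-32, miR-582 and miR-874 lower ones, and none passed. Among these, miR-187, miR-204 and miR-32 had groups without overlap. miR-132 was one of the 17 hairpins whose leading arm differed between columns.

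**Figure D5:**
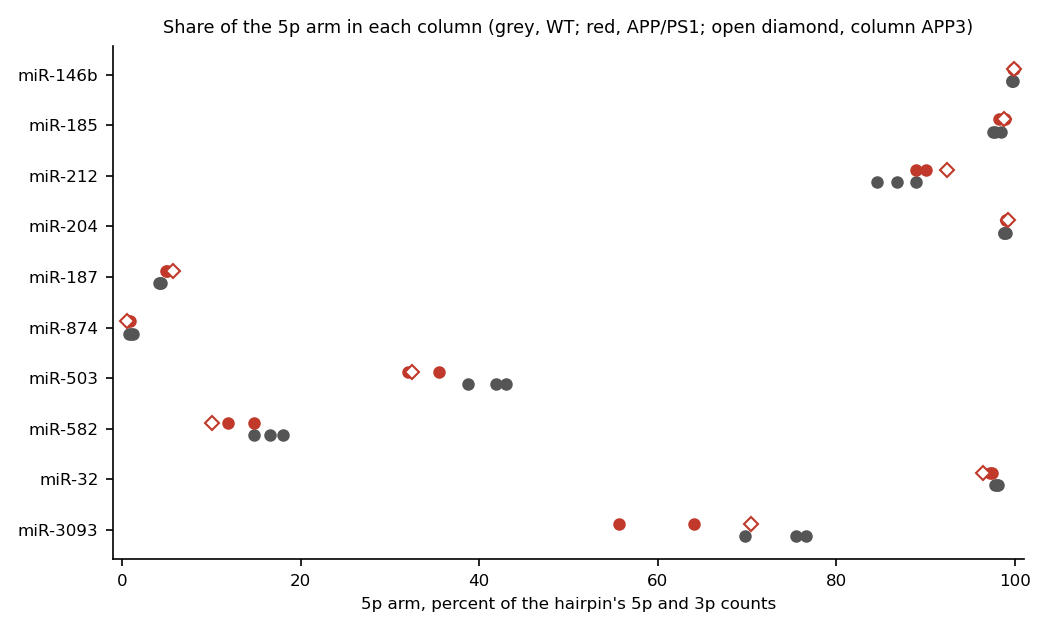
Share of the 5p arm in the summed 5p and 3p counts (percent, horizontal) in each column for the 10 named hairpins, WT in grey, APP/PS1 in red and column APP3 as an open diamond. Shares near 0 or 100 belong to hairpins that keep 1 arm, and miR-3093 has the widest spread. The hairpins whose genotypes do not overlap include miR-503, miR-212, miR-32, miR-187 and miR-204.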

How the data were processed

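Small RNA of mouse hippocampus was counted per mature miRNA in 6 columns, 3 per genotype. The deposited values are raw counts per mature miRNA. The deposited total RNA table, used for host genes, holds estimated counts per gene as whole numbers. The submitters' processing notes name HISAT2, StringTie, DESeq and mm10, without roles or versions, and the counting of miRNAs is not given in the sources used here. APP/PS1 columns were compared with WT columns by edgeR 4.0.16 (R 4.3.3) with quasi-likelihood tests, TMM scaling, the default expression filter and Benjamini-Hochberg adjustment at 0.05. Seed family and cluster sums used the scaling of the miRNA table, and members with equal counts in every column were summed once, of which 26 had a mean over 20. Arm ratios were log2 of 5p over 3p counts with a pseudocount of 1, tested with limma 3.58.1 where both arms had a mean of at least 20 counts. The SE was derived from the fold change and the F statistic.

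With these depths the spread between columns, not counting error, set the precision of abundant miRNAs. The labels give 3 small RNA samples per genotype, and the p-values set the difference between genotypes against the spread between these columns. The alternatives were DESeq2 1.42.0, limma-voom, other scalings and filters, seeds of bases 2 to 7, cluster distances of 3 and 50 kb, and columns left out. The procedures were tested on simulated data. The miRNAs, the 19 lists and the rules were chosen with earlier results of these data known. Named were the 12 most abundant miRNAs, 10 per direction by smallest p with all columns and 6 without APP3, with a mean count of at least 20, then 2 per list and 5 families, clusters and arm pairs per direction. Values outside this rule (among them miR-182-5p, miR-183-5p, miR-96-5p, miR-133b-3p, miR-497a-5p, miR-34a-5p, miR-204-5p, miR-211-5p, miR-34b-5p, miR-200c-3p, miR-212-5p and the untested list members) were chosen after they were seen.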

Additional observations from a re-analysis of the deposited data

How the results depend on the processing

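The count of 0 called miRNAs, families, clusters and arm ratios with all columns held under other scalings, DESeq2 and limma-voom (not run for arm ratios) and under a mean count of at least 50. Leaving out 1 column gave 0 to 2 called miRNAs, 0 to 1 families, 0 to 2 clusters and 0 arm ratios, and each call came without column APP1 and belonged to miR-10a or miR-10b. Total count scaling moved the median of all miRNAs to -0.11 and upper quartile scaling to -0.10. A rule of unadjusted p under 0.05 with a 2-fold change took 4 miRNAs, and without a filter 2 families were called. Without APP3 and without a filter 4 miRNAs were called, miR-7688-5p, miR-196a-5p, miR-1912-3p and miR-1298-5p, and leaving out a further column, an alternative chosen after seeing the data, gave 0 to 7, the 7 where APP2 alone stood against WT. The cause was not tested. With the replicate number as a block, 6 miRNAs, 4 families, 2 clusters and 2 arm ratios were called. APP3 and WT4 share their number with no other column, so they carry no weight in the genotype difference of that fit. It sets APP1 and APP2 against WT1 and WT2. Deviations of same-numbered columns correlated at 0.219 (APP1 and WT1) and 0.246 (APP2 and WT2). Those of columns with different numbers correlated at -0.174 (APP1 and WT2) and -0.0078 (APP2 and WT1). Only 2 numbers occur in both groups and the labels do not say what a number marks, so the numbers were not taken as pairs. A shared origin of same-numbered columns was not tested. Under the block the difference turned for miR-26a-5p (-0.0053), miR-218-5p (0.024), miR-486a-3p (-0.026), miR-486a-5p (-0.26), miR-206-3p (-0.0046), miR-195a-5p (-0.020) and the cluster of miR-182-5p (-0.22). These turns cannot be told apart from the loss of APP3 and WT4. With 1 column left out, differences ranged from -0.17 to 0.081 for miR-218-5p, -0.24 to 1.65 for miR-486a-5p, -0.075 to 5.99 for miR-206-3p, -0.089 to 5.41 for its cluster and -0.16 to 2.20 for the cluster of miR-182-5p, each turning without APP3. Total count scaling turned miR-9-5p to -0.0068. In all, 80 of 89 named differences with all 6 columns kept their sign in every alternative to that fit. Alternatives to the fit without APP3 were not part of this count. Among those, leaving out APP2 as well turned both miR-10a-5p and miR-10b-5p negative, with a median of -0.52. A difference of 2-fold in a miRNA near 1 CPM rests on few counts, and 2 columns against 3 leave a wide error.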
